A study of Mus musculus with 12 samples.

Results

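Of 89 nuclear genes of the respiratory chain, 58 were lower in cultured megakaryocytes (MEG) than in the hematopoietic stem and progenitor cells (HSPC) of fetal liver at a false discovery rate (FDR) of 5%, where 20.7% of all genes were lower. In erythroblasts (ERY) 29 of the 89, or 32.6%, were lower than in HSPC, where 20.1% of all genes were. Of the genes whose mean over the arrays reached the median of all genes, 33.7% were lower in MEG and 33.7% in ERY. The share of members in ERY did not exceed this. The genes were chosen by their names: every annotated symbol that starts with Nduf and a letter a, b, c, s or v, the 4 genes *Sdha* to *Sdhd*, and symbols that start with Uqcr, with Cox and a digit from 4 to 8, or with Atp5. The 89 members are among 19937 genes measured. They comprise 34 subunits of complex I, 7 assembly factors of complex I, 4 subunits of complex II, 8 of complex III, 19 of complex IV, with tissue isoforms and *Ndufa4* counted there, and 17 of the ATP synthase. *Cox7c* and *Ndufb4* were seen only by probe sets that carry several gene symbols, and they are not analysed here.

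Most ATP of a cell that respires is made in the inner membrane of its mitochondria. Complexes I and II pass electrons from NADH and succinate to coenzyme Q, complex III passes them on to cytochrome c, and complex IV passes them to oxygen; complexes I, III and IV pump protons, and the ATP synthase uses the gradient. A few subunits are encoded by mitochondrial DNA, for which no gene on the array carried a symbol, and the rest are nuclear genes, the ones described here. Red cells lose their mitochondria as they mature, while megakaryocytes hand mitochondria on to platelets.

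All 3 populations came from E14.5 mouse fetal livers, with no engineered allele given in the sources used here, and 4 replicates of each were hybridised, 1 to an array (GeneChip Mouse Gene ST). MEG were grown from KIT-positive progenitors through 7 days of expansion and then 5 days of maturation in culture, and were enriched on CD41 beads, so that MEG differ from the other populations in culture as well as in cell type. ERY were taken with Ter119 beads and HSPC, labelled HSC on the arrays, were sorted as lineage-negative cells with Sca1; neither was cultured. Nothing in the labels says whether replicates came from separate litters, so that p-values measure the spread between these arrays. Levels are given in log2 units, 1 unit being 2-fold, and they are relative to the RNA on the same array. In these bulk samples, fewer cells of a type and less RNA per cell cannot be told apart.

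Most lineage markers went with the labels. All 7 erythroid markers were induced in ERY against HSPC, and all 6 megakaryocyte markers in MEG against HSPC. In MEG against HSPC, 1 erythroid marker was also induced and 1 was repressed. Of 6 stem and progenitor markers, 4 were repressed and 1 was induced in MEG, and 5 were repressed in ERY. Markers of other cells also differed: all 9 hepatocyte genes were higher in ERY than in HSPC, with a list median 2.11 to 3.21 above the 12-array mean on the ERY arrays, -2.67 to -2.32 on the MEG arrays and -0.39 to 1.58 on the HSPC arrays, and 4 of 6 macrophage genes were higher in ERY. Neutrophil and monocyte granule genes stood at 1.28 on MEG array 3, against -2.18 to -1.45 on the other MEG arrays. They stood at -2.35 to -1.34 on the ERY arrays and at 3.05 to 3.50 on the HSPC arrays. Mast cell and basophil genes stood at 1.71 on MEG array 3, against -1.25 to -0.03 on the other MEG arrays. Macrophage genes stood at 0.85 on MEG array 3, against -1.44 to -0.14 on the other MEG arrays. The part of these cells in the results below was not tested.

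The starts of respiratory chain genes are known to hold sites of a few shared factors, among them NRF1 and the ETS factor GABPA. RefSeq windows of 250 bases before to 50 after the start (build GRCm38.p6) were found for 73 of the 89 members, 78 windows in all. The NRF1 core gcatgcgc, or gcgcatgc on the other strand, stood in 15.4% of the member windows and in 2.71% of all 32851 windows. The ETS core ccggaag, or cttccgg on the other strand, stood in 23.1% of the member windows and in 8.86% of all windows. Both cores stood in 6.41% of member windows and in 0.521% of all. These shares describe letters, not binding, and windows of genes of like expression level were not counted apart.

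Printed here are the starts of the 3 genes that carry both cores and were repressed in MEG, which belong to 3 complexes, and of *Cox5a*, the single member that was higher in MEG than in ERY by more than 2-fold and whose window holds neither core. Each run is read 5′ to 3′ along the gene, from 100 bases before the start to 30 after it, and capitals mark the 2 cores. *Uqcr11* is at chr10:80406792-80406921 on the minus strand, *Sdhb* at chr4:140961171-140961300 on the plus strand, *Atp5k* at chr5:108434370-108434499 on the minus strand and *Cox5a* at chr9:57521132-57521261 on the plus strand.
Uqcr11: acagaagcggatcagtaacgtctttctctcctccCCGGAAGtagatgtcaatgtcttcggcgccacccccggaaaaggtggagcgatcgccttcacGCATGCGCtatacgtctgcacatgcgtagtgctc
Sdhb: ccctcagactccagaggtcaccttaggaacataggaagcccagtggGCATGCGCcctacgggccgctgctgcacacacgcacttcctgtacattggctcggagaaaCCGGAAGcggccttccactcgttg
Atp5k: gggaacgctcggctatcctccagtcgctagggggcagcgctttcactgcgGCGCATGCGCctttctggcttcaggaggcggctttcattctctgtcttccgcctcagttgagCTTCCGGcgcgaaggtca
Cox5a: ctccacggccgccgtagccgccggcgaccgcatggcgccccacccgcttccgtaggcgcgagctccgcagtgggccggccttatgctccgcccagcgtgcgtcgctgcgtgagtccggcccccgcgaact

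In *Uqcr11* the NRF1 core spans the start itself, and in *Atp5k* both strands of it overlap in the run GCGCATGCGC. Among members repressed in MEG against HSPC, 5 of 21 windows (23.8%) held the NRF1 core and 7 (33.3%) the ETS core. Among the other members, 7 (12.3%) and 11 (19.3%) of 57 windows did. These counts are small, and the difference between the 2 sets of windows was not tested. The YY1 letters aagatggcg stood in 8.97% of member windows and in 1.40% of all windows, and the GATA letters agataa in 6.41% of member windows and in 11.2% of all windows, both counted on either strand. The letters caaggtca of the ERR alpha site, a nuclear receptor known to act on genes of oxidative metabolism, stood in 5.13% of member windows and in 1.56% of all windows.

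The first comparison asks what becomes of these genes when HSPC give rise to MEG. Of the 89 members, 27 were repressed in MEG, 30.3% of the list, at a change above 2-fold and an FDR under 5% with limma; 11.4% of all genes were repressed, and 20.5% of the 9969 genes whose mean over the arrays reached the median of all genes, called the higher genes here, to which 83 of the 89 members belong. None was induced, also at an unadjusted p of 0.05, against 8.77% of all genes and 15.0% of the higher genes. With no limit on the size of the change, 58 members were lower (20.7% of all genes, 33.7% of the higher genes), 1 was higher (13.2% of all genes, 20.2% of the higher genes) and 30 did not pass. The median of the members was -0.65, that of all genes -0.02 and that of the higher genes -0.19. In 53 members every MEG array lay below every HSPC array, as it did in 17.4% of all genes and 28.0% of the higher genes. Of the 27 repressed members, *Ndufa11* and *Ndufb2* are the ones whose arrays overlapped.

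**Figure D1:**
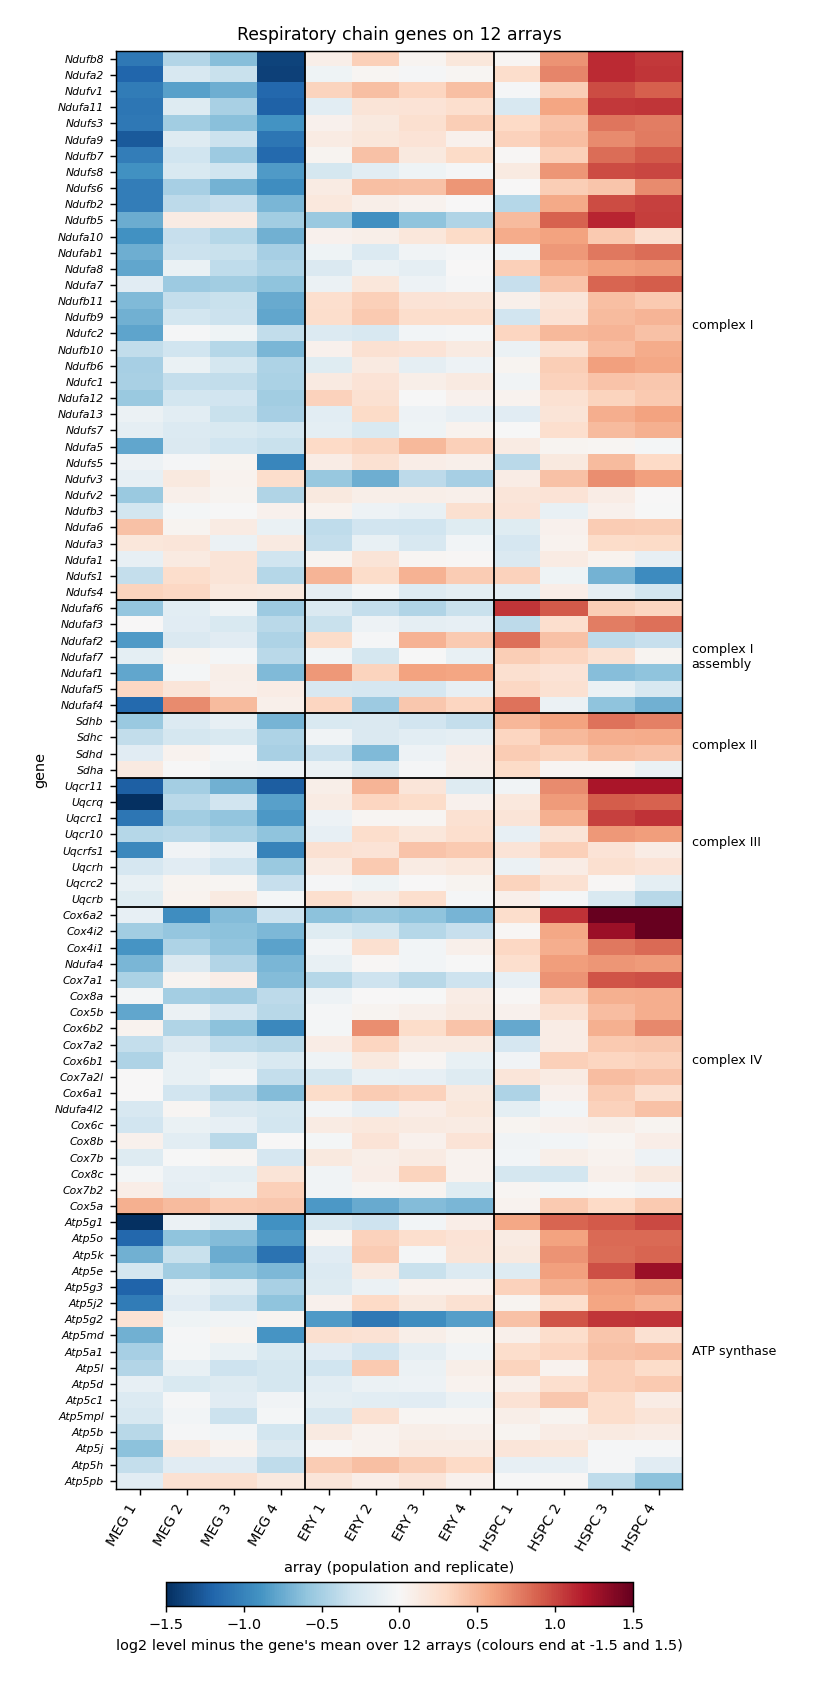
Log2 level of each of the 89 members minus its own mean over the 12 arrays, with genes as rows grouped by complex and sorted by their change in MEG against HSPC, and arrays as columns (4 each of MEG, ERY and HSPC). MEG arrays are mostly blue, HSPC arrays mostly red with HSPC array 1 the palest, and *Cox5a*, *Atp5g2* and *Ndufv3* are lowest on the ERY arrays.

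Complex I carries the NADH oxidizing core of the chain. *Ndufv1*, the flavoprotein that accepts electrons from NADH, read 9.12, 9.35, 9.43 and 8.99 on the MEG arrays and 10.15, 10.53, 11.14 and 11.07 on the HSPC arrays. Every MEG array was below every HSPC array, and the HSPC arrays were themselves spread over about 1 log2 unit. The change was a 2.83-fold decrease, with an SE of 0.20 on the log2 scale (adjusted p = 0.00013). Of the 6 core subunits measured, *Ndufs3* (-1.36), *Ndufs8* (-1.27) and *Ndufv1* were repressed and *Ndufs7* was lower by less than 2-fold (-0.53). *Ndufv2* (-0.35, adjusted p = 0.099) did not pass.

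*Ndufs1*, the largest core subunit, which holds several iron-sulfur clusters, had another pattern among the HSPC arrays. It read 8.69, 9.31, 9.24 and 8.61 in MEG and 9.38, 8.98, 8.33 and 8.10 in HSPC, so that the groups overlapped and the difference of 0.26 ± 0.26 did not pass (adjusted p = 0.47). Its 2 lowest HSPC arrays, 3 and 4, are the 2 on which *Ndufv1* was highest.

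Accessory subunits surround the core. Of 28 measured, 21 were lower in MEG at the FDR, 10 of them repressed, and *Ndufs4* was higher. Of all genes 20.7% were lower and 11.4% repressed, and of the higher genes 33.7% and 20.5%. These shares hold for the counts of each complex below. *Ndufb8*, of the membrane arm, read 8.32, 8.95, 8.74 and 8.0 in MEG and 9.41, 10.05, 10.50 and 10.45 in HSPC, with no overlap (-1.60 ± 0.25, adjusted p = 0.00038). *Ndufa2*, of the matrix arm, read 8.86, 9.81, 9.71 and 8.64 in MEG and 10.31, 10.79, 11.17 and 11.12 in HSPC, again with no overlap (-1.59 ± 0.27, adjusted p = 0.00057). Both were lowest on MEG arrays 1 and 4. *Ndufs4*, the subunit whose loss in mice gives a model of Leigh syndrome, was the only member higher in MEG at this FDR: 11.35, 11.32, 11.17 and 11.16 in MEG against 10.87, 11.11, 10.87 and 10.74 in HSPC (0.35 ± 0.12, adjusted p = 0.033). Its groups did not overlap, but the gap was small, and the call was lost without MEG array 1 or 2 or HSPC array 1, 3 or 4.

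*Ndufb5* was repressed in MEG (-1.14 ± 0.22, adjusted p = 0.0015), but its change was -0.98 without MEG array 1, inside 2-fold. *Ndufab1*, the acyl carrier protein of mitochondria, was repressed in MEG (-1.03; inside 2-fold without MEG array 1, HSPC array 3 or HSPC array 4), and its second probe set changed by -0.23 in MEG; in ERY the probe set used changed by -0.64 and the other by 0.82. Of the 7 assembly factors, which build complex I without staying in it, *Ndufaf6* was repressed (-1.01 ± 0.19, adjusted p = 0.0013; inside 2-fold without MEG array 1, MEG array 4, HSPC array 1 or HSPC array 2), *Ndufaf7* was lower (-0.37; not without MEG array 1 or 4 or HSPC array 1, 2 or 3) and 5 did not pass. *Ndufaf4* had the widest spread of these, 6.18 to 8.05 in MEG and 6.63 to 8.16 in HSPC.

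Complex II is also the succinate dehydrogenase of the citric acid cycle, and all its subunits are nuclear. *Sdhb*, the iron-sulfur subunit, read 9.46, 9.82, 9.90 and 9.33 in MEG and 10.52, 10.63, 10.84 and 10.78 in HSPC. The groups were apart by more than the spread in either, and the change was -1.06 ± 0.14 (adjusted p = 0.00013); without MEG array 4 it was -0.96, inside 2-fold. The membrane anchors *Sdhc* (-0.81) and *Sdhd* (-0.55) were lower by less than 2-fold, *Sdhd* not without MEG array 4 or HSPC array 3 or 4. *Sdha*, the flavoprotein subunit, read 10.61 to 10.82 in MEG and 10.58 to 10.97 in HSPC (-0.06, adjusted p = 0.73).

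Complex III held the member with the largest decrease. *Uqcr11*, a small accessory subunit, read 8.99, 9.72, 9.50 and 8.98 in MEG and 10.17, 10.93, 11.44 and 11.45 in HSPC. No MEG array reached the lowest HSPC array, which was array 1, and the change was -1.70 ± 0.28, a 3.25-fold decrease (adjusted p = 0.00053). *Uqcrq*, also accessory, was lower by 1.49 on the log2 scale and *Uqcrc1*, a core subunit, by 1.48. The Rieske iron-sulfur protein *Uqcrfs1* was lower by less than 2-fold (-0.76), while *Uqcrc2* (-0.20, adjusted p = 0.28) and *Uqcrb* (0.14, adjusted p = 0.45) did not pass. In all, 6 of the 8 members of complex III were lower at the FDR, and 3 of these were repressed.

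Complex IV has subunits made from pairs of genes, one used in most tissues and the other in heart, muscle, lung or testis. Of the 10 common subunits, 6 were lower at the FDR, and of these *Cox4i1* and *Ndufa4* were repressed. *Cox4i1*, the regulatory subunit of most tissues, read 9.65, 10.08, 9.95 and 9.74 in MEG and 10.86, 11.09, 11.33 and 11.39 in HSPC (-1.31 ± 0.15, adjusted p = 3.9e-05). These groups were apart with a narrow spread in each. *Ndufa4*, first named for complex I and now known as part of complex IV, fell by 1.05 ± 0.14, and by 0.99 without MEG array 1 or MEG array 4. *Cox8a* (-0.73), *Cox7a2* (-0.51) and *Cox6b1* (-0.48) were lower by less than 2-fold, as was *Cox7a2l* (-0.43), which takes part in supercomplexes; *Cox7a2* and *Cox7a2l* did not pass without HSPC array 3 or 4. *Cox6a1* did not pass (-0.40, adjusted p = 0.13).

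The isoforms named for other tissues gave the largest changes of complex IV. *Cox6a2*, the heart and muscle form of subunit 6a, read 7.37, 6.56, 6.84 and 7.18 in MEG and 7.75, 8.58, 9.02 and 9.14 in HSPC (-1.64 ± 0.27, adjusted p = 0.00051). *Cox4i2*, the lung form of subunit 4, read 6.41, 6.34, 6.31 and 6.25 in MEG and 6.94, 7.50, 8.21 and 8.66 in HSPC (-1.5 ± 0.28, adjusted p = 0.0013). The MEG values of *Cox4i2* lie just above the background level of 6.18 given below, which limits what its fold change can show. In both genes HSPC array 1 was the lowest of its group and arrays 3 and 4 the highest, and without arrays 3 and 4 *Cox4i2* changed by -0.89, inside 2-fold, and *Cox6a2* by -1.18. *Cox7a1*, the heart and muscle form of subunit 7a, was lower by less than 2-fold (-0.86) at a MEG mean of 6.13, which is not above the background described next, while *Cox6b2* and *Cox8c*, known from testis, and *Cox8b* did not pass. *Cox8b*, *Cox7b2* and *Ndufa4l2* did not rise above 6.18, the level under which 95% of olfactory receptor genes lie, which are not used in blood cells.

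The ATP synthase has a catalytic head, F1, a rotating ring of c subunits in the membrane and a stalk that holds the head still. The c subunit is encoded by 3 genes that give the same mature protein. *Atp5g1* read 10.12, 11.71, 11.60 and 10.88 in MEG and 12.37, 12.67, 12.71 and 12.78 in HSPC (-1.56 ± 0.29, adjusted p = 0.0011), and *Atp5g3* was also repressed (-1.04; -0.80 without MEG array 1). MEG array 1 was far below MEG arrays 2 and 3 in *Atp5g1*, but all 4 were below HSPC. *Atp5o*, the stalk subunit known as OSCP, changed by -1.42 ± 0.18 (adjusted p = 8.4e-05), while the other stalk subunits *Atp5h* (-0.16), *Atp5j* (-0.24) and *Atp5pb* (0.36) did not pass. All 5 subunits of F1 were lower by sign and 4 passed the FDR. Among these 4, *Atp5e* was repressed (-1.18, and inside 2-fold without HSPC array 4).

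**Figure D2:**
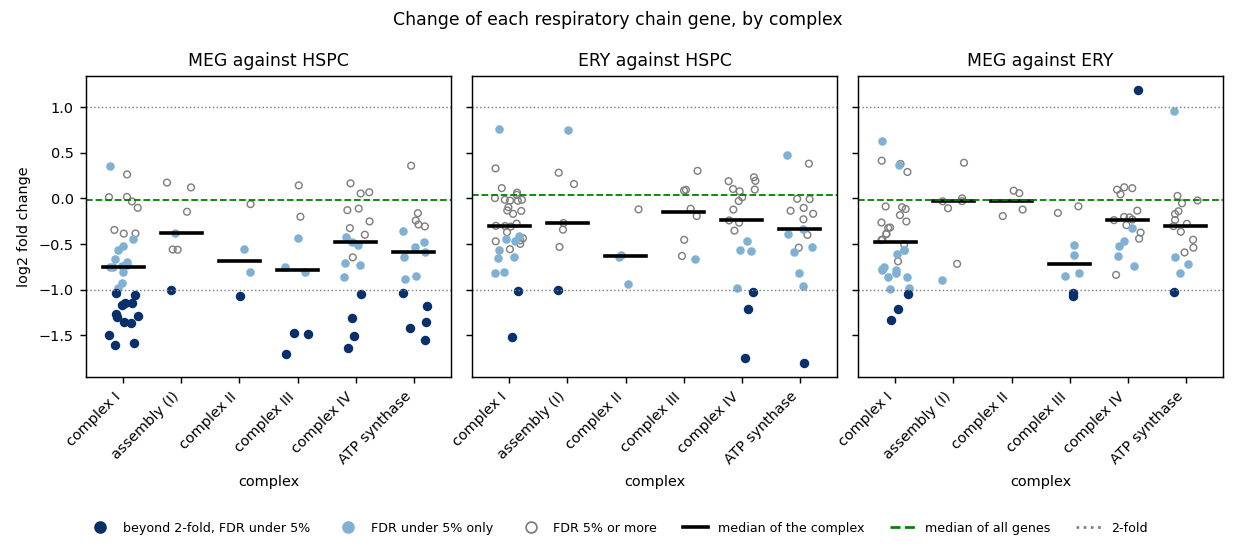
Log2 fold change of each member (points) by complex for MEG against HSPC, ERY against HSPC and MEG against ERY, filled dark where the change is above 2-fold at an FDR under 5%, pale where only the FDR is met and open otherwise; black bars are medians of a complex and the dashed line is the median of all genes. In MEG against HSPC the medians run from -0.78 in complex III to -0.37 in the assembly factors, and in MEG against ERY complex II is at -0.03 and complex III at -0.72.

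The second comparison asks the same of ERY. Here 7 of the 89 members were repressed (7.87%), 4 without HSPC array 4, against 12.3% of all genes and 22.1% of the higher genes, and none was induced, also at an unadjusted p of 0.05 (8.35% of all genes, 15.1% of the higher genes). At the FDR alone 29 were lower (20.1% of all genes, 33.7% of the higher genes), 3 were higher (12.6% of all genes, 20.1% of the higher genes) and 57 did not pass. The median of the members was -0.30, that of all genes 0.03 and that of the higher genes -0.16. In 26 members every ERY array lay below every HSPC array (20.9% of all genes, 34.5% of the higher genes), and in 5 above (16.3% of all genes, 19.5% of the higher genes). At 32.6%, the share of members lower at the FDR is close to that of the higher genes. This comparison and that of MEG share the HSPC arrays, so their values are set side by side without a test of likeness.

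Of the 7 repressed members, 4 were also repressed in MEG. *Ndufb5*, of the membrane arm of complex I, read 9.24, 8.87, 9.20 and 9.34 in ERY and 10.27, 10.68, 10.94 and 10.84 in HSPC (-1.52 ± 0.22, adjusted p = 0.00017). *Cox6a2* read 6.80 to 6.93 in ERY, below every HSPC array (-1.75 ± 0.27, adjusted p = 0.00027). *Cox4i2* read 6.49 to 6.75, against 6.94 on the lowest HSPC array (-1.21 ± 0.28, adjusted p = 0.0053; -0.93 without HSPC array 4). *Ndufaf6* averaged 5.93 in ERY, as in MEG, below the olfactory receptor level of 6.18, against 6.94 in HSPC, so that its measured -1.01 ± 0.19 (adjusted p = 0.0012) is set against a level not above background; it was inside 2-fold without ERY array 3, HSPC array 1 or HSPC array 2.

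*Cox5a*, *Ndufv3* and *Atp5g2* were repressed in ERY and did not pass 2-fold in MEG. *Cox5a*, a common subunit of complex IV on its matrix side, read 9.22, 9.33, 9.43 and 9.40 in ERY and 10.14, 10.48, 10.38 and 10.48 in HSPC. All ERY arrays lay below all HSPC arrays with little spread, and the change was -1.02 ± 0.12 (adjusted p = 2.3e-05), at the edge of 2-fold: it was -0.98 without ERY array 1, HSPC array 2 or HSPC array 4. *Ndufv3*, an accessory subunit beside the NADH site, changed by -1.01 ± 0.15 (adjusted p = 0.0002), and by -0.95, -0.93 and -0.96 without ERY array 2, HSPC array 3 and HSPC array 4.

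*Atp5g2* had the largest decrease in ERY, to 10.76, 10.53, 10.68 and 10.78, against 12.05, 12.55, 12.68 and 12.69 in HSPC (-1.80 ± 0.15, adjusted p = 2.1e-06). The probe set behind these values lies among probe sets of another chromosome than the gene's. The probe set of *Atp5g2* that lies among those of its own chromosome changed by -0.99 ± 0.28 in ERY (adjusted p = 0.0159) and by -0.95 in MEG (adjusted p = 0.0203). A further probe set of *Atp5g2* changed by -2.19 in ERY and -1.28 in MEG. All 3 were lower in ERY, by different amounts, and which of them reads the gene best was not tested. The same question of place holds for the chosen probe sets of *Atp5l*, *Atp5md*, *Atp5pb*, *Cox6c*, *Cox7a2l*, *Cox7b*, *Ndufa11* and *Ndufb11*, and with probe sets of their own chromosome for all 9 the repressed counts were 27 in MEG, 6 in ERY and, between MEG and ERY, 7.

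The other c subunit genes were lower by less than 2-fold in ERY, *Atp5g1* by -0.96 and *Atp5g3* by -0.59. The call of *Atp5g3* was lost without any 1 of 7 arrays, all but HSPC array 1 (adjusted p 0.07 to 0.12), and that of *Atp5g1* without ERY array 1 or 2 or HSPC array 3 or 4 (0.0505 to 0.057). In complex II, *Sdhb* (-0.94), *Sdhc* (-0.62) and *Sdhd* (-0.64) were lower in ERY, with changes near those of MEG, and *Sdha* did not pass. In complex III, 1 of 8 passed, *Uqcrc1* (-0.66), and it did not pass without ERY array 1, 2 or 3 or HSPC array 3 or 4 (adjusted p 0.053 to 0.076). *Cox4i1* was lower by 0.57 on the log2 scale (adjusted p = 0.011), while *Cox7a2* (0.01, adjusted p = 0.96), *Cox5b* (-0.27, adjusted p = 0.25) and *Ndufs6* (0.04, adjusted p = 0.9) did not pass.

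Higher in ERY than in HSPC were *Ndufs1* (0.77), the assembly factor *Ndufaf1* (0.75) and the stalk subunit *Atp5h* (0.48). *Atp5h* read 11.87, 11.95, 11.86 and 11.79 in ERY and 11.37, 11.37, 11.48 and 11.32 in HSPC, 2 tight groups that did not overlap (0.48 ± 0.11, adjusted p = 0.0036). *Ndufs1* read 9.55, 9.32, 9.57 and 9.43 in ERY and overlapped with HSPC array 1 at 9.38 (adjusted p = 0.039). Its change did not pass the FDR without any 1 of 6 arrays, the 4 of ERY and HSPC arrays 3 and 4 (adjusted p 0.06 to 0.12), and it was 0.57 without HSPC array 4. *Ndufaf1* read 8.79 to 9.10 in ERY and 7.81 to 8.69 in HSPC (adjusted p = 0.037), and did not pass without ERY array 1, 3 or 4 or HSPC array 3 or 4.

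**Figure D3:**
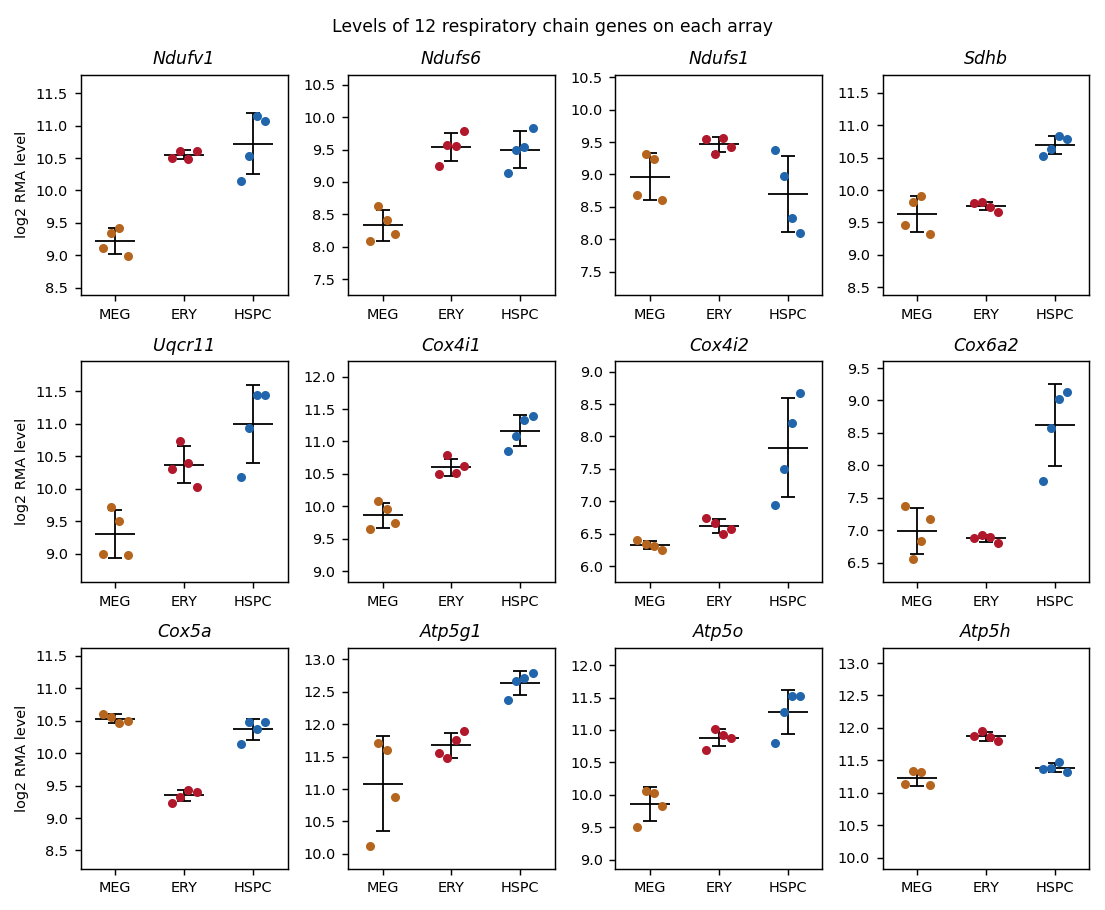
Log2 RMA level of 12 members on each array (points, replicates 1 to 4 from left to right within MEG, ERY and HSPC), with mean and SD as bars. *Ndufv1* and *Ndufs6* are lower in MEG than in both other populations, *Cox5a* and *Atp5h* differ in ERY, and *Cox4i2*, *Cox6a2*, *Uqcr11* and *Ndufs1* each span over 1 log2 unit among the HSPC arrays.

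The last comparison sets the mature lineages against each other and does not use the HSPC arrays for its difference. In MEG against ERY, 6 members were repressed, 6.74% of the list against 7.77% of all genes and 13.5% of the higher genes, and 1 was induced (8.75% of all genes, 15.2% of the higher genes). At the FDR alone 31 were lower (13.1% of all genes, 20.2% of the higher genes), 4 were higher (12.7% of all genes, 21.0% of the higher genes) and 54 did not pass, and the median was -0.33, with those of all genes and of the higher genes both at -0.02. In 43 members every MEG array lay below every ERY array, as it did in 17.7% of all genes and 25.3% of the higher genes, and in 6 above (15.2% of all genes, 24.9% of the higher genes). Most of these differences were inside 2-fold.

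*Cox5a* was the induced member. It read 10.61, 10.56, 10.47 and 10.49 in MEG and 9.22, 9.33, 9.43 and 9.40 in ERY, groups that are apart by over 1 log2 unit with an SD of 0.06 in MEG and 0.09 in ERY. The difference was 1.19 ± 0.12 (adjusted p = 5.6e-06), and MEG did not differ from HSPC beyond the test (0.16, adjusted p = 0.3). It is the one common subunit of complex IV with this order, since 9 of 10 common subunits had a negative sign in MEG against ERY.

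The 6 repressed members came from complex I, complex III and the ATP synthase. *Ndufv1* read 10.50, 10.61, 10.48 and 10.61 in ERY, all above the highest MEG array at 9.43 (-1.33 ± 0.20, adjusted p = 0.00026). *Ndufs6*, an accessory subunit that binds zinc, read 8.08, 8.63, 8.42 and 8.20 in MEG and 9.24, 9.57, 9.56 and 9.78 in ERY (-1.21 ± 0.18, adjusted p = 0.0002). Both stood in ERY near their HSPC level, *Ndufv1* at 10.55 against 10.72 and *Ndufs6* at 9.54 against 9.50.

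*Uqcr11* (-1.07), *Ndufb8* (-1.05), *Uqcrq* (-1.03) and *Atp5o* (-1.02) lay at the edge of 2-fold. Each of these 4 calls was lost without MEG array 1 and without ERY array 2. The change of *Uqcr11* was then -0.97 and -0.95, and it was -0.97 without MEG array 4. That of *Ndufb8* was -0.98 and -0.98, and -0.88 without MEG array 4. That of *Uqcrq* was -0.69 and -0.99, and without ERY array 3 its adjusted p was 0.052. That of *Atp5o* was -0.91 and -0.98. Over the list, the repressed count was 3 without MEG array 1, 3 without ERY array 2 and 11 without MEG array 2.

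Higher in MEG than in ERY by less than 2-fold were *Atp5g2* (0.95), *Ndufv3* (0.63) and *Ndufs4* (0.37; lost without MEG array 1 or 2 or ERY array 1, 3 or 4). *Ndufv3* read 7.99, 8.26, 8.16 and 8.37 in MEG and 7.55, 7.38, 7.72 and 7.62 in ERY, with no overlap (± 0.15, adjusted p = 0.007). For *Atp5g2*, the probe set of its own chromosome gave 0.04 (adjusted p = 0.943), and the higher level in MEG was not seen there. *Atp5md*, a small membrane subunit of the ATP synthase, differed by -0.54 with the probe set used (adjusted p = 0.068), and with that of its own chromosome it averaged 8.33 ± 0.39 in MEG and 9.46 ± 0.21 in ERY (SD, n = 4 each), a difference of -1.14 (adjusted p = 0.004). In complex II no member passed between MEG and ERY, with a median of -0.03. In complex III 6 of 8 members were lower at the FDR (13.1% of all genes, 20.2% of the higher genes). All 8 were lower by sign, as were 10372 of all 19937 genes.

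Over the means of the 3 populations, 63 members were highest in HSPC, 21 in ERY and 5 in MEG, and 68 were lowest in MEG. The order MEG below ERY below HSPC held in 53 members. These orders were not counted over all genes or the higher genes, so whether they set the members apart is not known. The spread between replicates was not alike: the median SD of a member was 0.22 in MEG, 0.11 in ERY and 0.24 in HSPC.

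The level of the list also differed between arrays of a population. The members' median distance from their own 12-array means was -0.46, -0.16, -0.23 and -0.47 on MEG arrays 1 to 4, -0.05, 0.09, 0.03 and 0.06 on ERY arrays 1 to 4, and 0.07, 0.32, 0.45 and 0.44 on HSPC arrays 1 to 4. MEG arrays 1 and 4 were the lowest and HSPC array 1 the least raised. Olfactory receptor genes are 1027 silent genes that show the background of an array. They stood at 1.13 on MEG array 4, against -0.19 to 0.04 on the other MEG arrays. On the ERY arrays they stood at -0.13 to 0.21 and on the HSPC arrays at -0.38 to -0.18. Their median difference was 0.54 in MEG against HSPC. At the FDR, 130 of the 1027 were higher (13.2% of all genes) and 2 lower (20.7% of all genes). Their part in the members' low values was not tested, and without MEG array 4 the members' median in MEG against HSPC was -0.58 and 24 were repressed. On the HSPC arrays, 65 of 89 members were higher on HSPC array 4 than on HSPC array 1, by a median of 0.41. The 32 assembly factors outside the naming rule stood at 0.24, 0.43, 0.46 and 0.43 on HSPC arrays 1 to 4. The 7 assembly factors of complex I ran the other way, with medians of 0.37, 0.26, -0.09 and -0.24, as did *Ndufs1*. The stalk of the ATP synthase stood at 0.06, 0.09, -0.01 and -0.09. The length of a gene moves with this: among the higher genes, the quartile with the shortest spans stood at -0.03, 0.27, 0.49 and 0.54 on HSPC arrays 1 to 4, and the quartile with the longest at 0.30, -0.02, -0.44 and -0.53. Averaged over the arrays of a population, the shortest quartile stood at -0.23 in MEG, -0.09 in ERY and 0.32 in HSPC. The members averaged -0.33, 0.03 and 0.32 in the same order, and the longest quartile 0.15, -0.03 and -0.17. Members have a median span of 7394 bases, against 21870 for the higher genes, and 76 of 89 are in the 2 shorter quartiles. The part of gene length, and of whatever set the HSPC arrays apart, was not tested. Without HSPC arrays 3 and 4, 16 members were repressed in MEG and 4 in ERY, with medians of -0.51 and -0.16. Without HSPC arrays 1 and 2, 33 were repressed in MEG and 14 in ERY, 2 were induced in ERY, and the medians were -0.77 and -0.44.

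**Figure D4:**
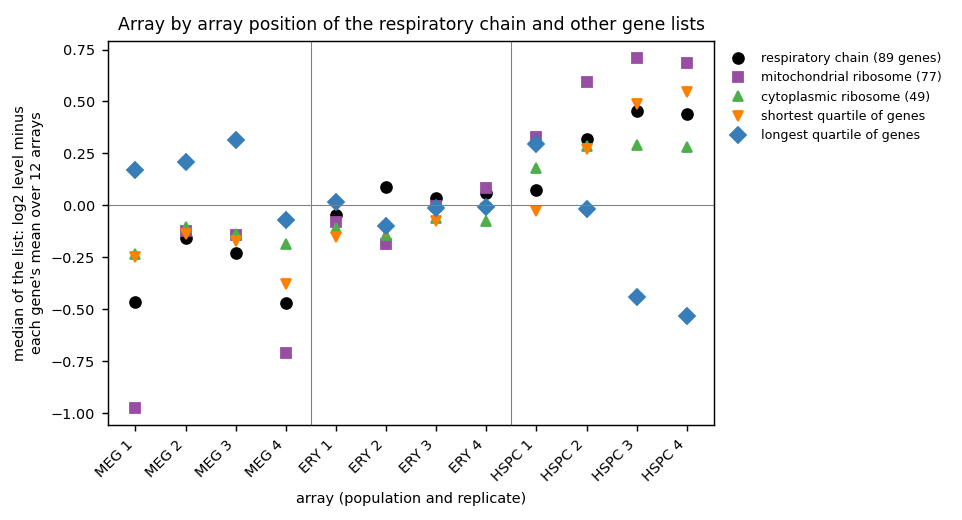
Median, over the genes of a list, of the log2 level minus each gene's mean over the 12 arrays (y axis), for each array (x axis, MEG, ERY and HSPC replicates): the 89 members, mitochondrial and cytoplasmic ribosome genes, and the shortest and longest quartiles of genes with a mean at or above the median of all genes. The members lie at -0.47 to -0.16 on the MEG arrays, -0.05 to 0.09 on the ERY arrays and 0.07 to 0.45 on the HSPC arrays, and the longest genes run the other way over the HSPC arrays.

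The reference of scaling matters for the size of the shift. Cytoplasmic ribosomal protein genes, of which 49 were measured, were themselves lower in MEG (median -0.46) and in ERY (-0.37) than in HSPC. With each array centred on these genes, the median of all genes moved to 0.46 in MEG and 0.45 in ERY, and that of the members to -0.17 in MEG and to 0.11 in ERY, so that the sign of the median in ERY turned. In MEG 8 members were then repressed, among them *Uqcr11* (-1.22), *Cox6a2* (-1.16), *Ndufb8* (-1.12), *Ndufa2* (-1.11) and *Atp5g1* (-1.07), and in ERY 3, among them *Atp5g2* (-1.39) and *Cox6a2* (-1.34). Centring shifts all genes by the same amount, so that it leaves the distance between the members and all genes as it was.

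**Figure D5:**
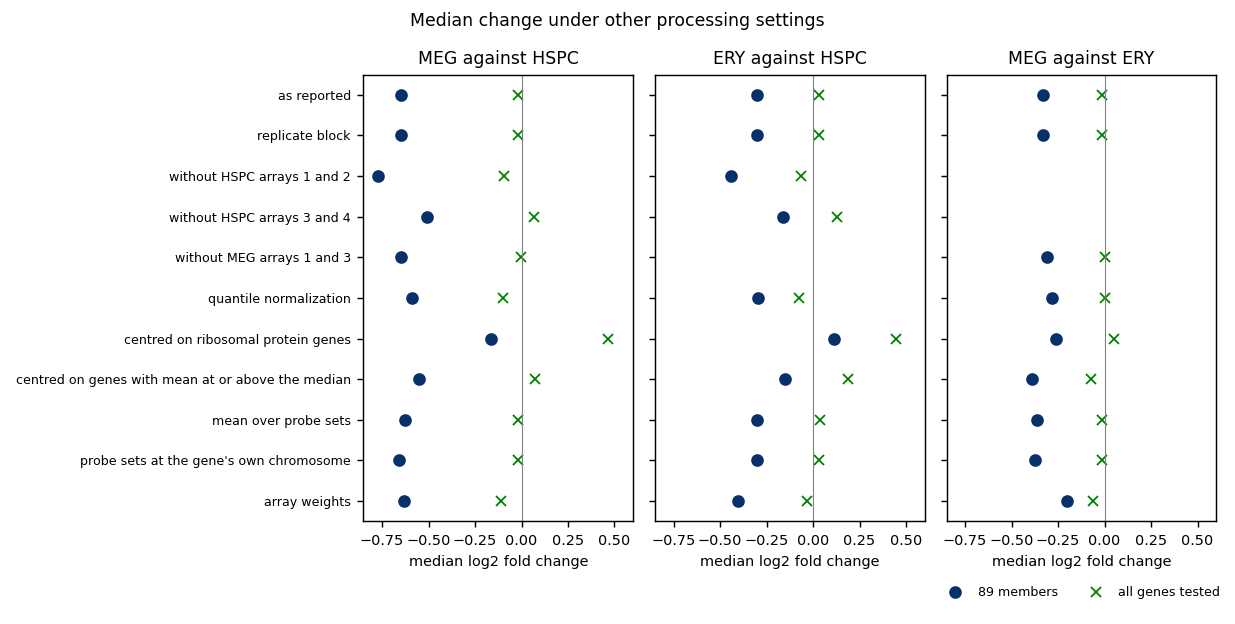
Median log2 fold change of the 89 members (filled circles) and of all genes tested (crosses) under each processing setting (rows), for MEG against HSPC, ERY against HSPC and MEG against ERY; settings that leave out arrays of another population have no point. The members lie left of all genes in every row, which for the centrings is fixed by their construction, and in ERY against HSPC with centring on ribosomal protein genes they lie right of 0, at 0.11.

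The other genes of the pathway were counted by lists. Of 77 genes of the mitochondrial ribosome, which makes the subunits encoded by mitochondrial DNA, 39 were repressed in MEG (50.6% of the list; 11.4% of all genes and 20.5% of the higher genes) and 19 in ERY (24.7%; 12.3% of all genes and 22.1% of the higher genes). The medians were -1.04 in MEG and -0.68 in ERY. These shares of all genes and of the higher genes hold for each list that follows. For induced genes they were 8.77% and 15.0% in MEG, and 8.35% and 15.1% in ERY. *Mrps18b* was lower by 2.29 on the log2 scale in MEG and by 1.93 in ERY, and *Mrpl37* by 2.23 in MEG and by 0.76 in ERY. Of 13 genes of the citric acid cycle, 3 were repressed in MEG (23.1%, median -0.79). In ERY 2 were repressed (15.4%, median -0.13) and 1, *Dld*, was induced. *Idh2*, the NADP-linked isocitrate dehydrogenase, averaged 9.65 ± 0.23 in MEG, 9.52 ± 0.14 in ERY and 11.86 ± 0.25 in HSPC (SD, n = 4 each), with a change of -2.21 in MEG and -2.34 in ERY. *Mdh2* was repressed in MEG (-1.27), and *Suclg1* in both, at -1.07 in MEG and -1.19 in ERY.

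Of 32 assembly factors outside the naming rule, 17 were lower and 3 higher at the FDR in MEG (median -0.57), and also 17 and 3 in ERY (-0.54). In MEG 20.7% of all genes and 33.7% of the higher genes were lower at the FDR, and 13.2% and 20.2% were higher. In ERY 20.1% and 33.7% were lower, and 12.6% and 20.1% were higher. Past 2-fold, 5 were repressed (15.6%) and 2 induced in MEG, and 8 were repressed (25%) and 2 induced in ERY. *Bcs1l*, which inserts the Rieske protein into complex III, changed by -1.91 in MEG and -2.21 in ERY, and *Uqcc2*, which helps to make cytochrome b, by -2.08 in MEG and -1.04 in ERY. *Coa5*, an assembly factor of complex IV, was higher in MEG, at 11.11 ± 0.15 against 9.66 ± 0.40 in HSPC (SD, n = 4 each; 1.45, adjusted p = 7.5e-05), and *Sdhaf2*, which puts the flavin on *Sdha*, was induced in MEG (1.11). The copper factors *Cox17* (1.34) and *Cox11* (1.24) were induced in ERY.

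Of 13 genes of coenzyme Q synthesis and electron transfer flavoprotein, 3 were repressed (23.1%) and 1 induced in MEG (median -0.45), and 3 were repressed (23.1%) and 2 induced in ERY (-0.44). *Coq4* changed by -1.98 in MEG and -1.86 in ERY, and *Coq2*, the enzyme that joins the ring to its tail, by -1.34 in MEG and -1.40 in ERY. *Coq10b* was induced in both, at 1.01 in MEG and 1.27 in ERY, and *Etfdh* was the other gene of this list induced in ERY. Cytochrome c1, *Cyc1*, was lower by 1.40 on the log2 scale in MEG (adjusted p = 0.0011), while cytochrome c, *Cycs*, did not pass in MEG (-0.16, adjusted p = 0.62) or ERY (-0.01, adjusted p = 0.97). *Atpif1*, the inhibitor of the ATP synthase, was higher in ERY, at 13.13 ± 0.04 against 12.73 ± 0.03 in HSPC (SD, n = 4 each; 0.40, adjusted p = 0.0058).

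Of 17 regulators of mitochondrial biogenesis, 6 were repressed in MEG (35.3%, median -0.43), and in ERY 3 were repressed (17.6%, median -0.23) and 1 was induced. *Pprc1*, a coactivator of the PGC-1 family, changed by -2.08 in MEG and -1.10 in ERY, *Polrmt*, the RNA polymerase of mitochondria, by -1.85 in MEG and -1.39 in ERY, and *Twnk*, the DNA helicase of mitochondria, by -1.84 in MEG and -1.71 in ERY. *Gabpb2*, a partner of GABPA, was induced in ERY (1.5). *Nrf1*, whose motif was searched above, averaged 8.04 ± 0.19 in MEG, 9.34 ± 0.09 in ERY and 8.78 ± 0.33 in HSPC (SD, n = 4 each): it was lower in MEG (-0.74, adjusted p = 0.0037) and higher in ERY (0.56, adjusted p = 0.017), both inside 2-fold. *Nrf1* was named here after its values were seen.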

How the data were processed

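Gene expression was measured on 12 arrays, 4 each of MEG, ERY and HSPC. The authors summarised the arrays with RMA (version and settings not given in the sources used here), and the deposited table has log2 values, 1 for every probe set of an array. RMA corrects background, equalizes arrays and combines probes. Array medians lie between 5.99 and 6.25, and the number of arrays limits the precision.

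Of 34760 probe sets, 21640 carry 1 gene symbol in the platform annotation and were used, 1321 carry several and 11799 are not listed there. Where several probe sets measure a gene, that of highest mean was used; 954 of 19937 genes, and 17 of 89 members, have more than 1. Probe-set numbers run along the chromosomes: 97.2% of 21550 probe sets have, in their 10 neighbours on each side, mostly genes of their own chromosome. Spans and promoter windows are RefSeq's (GRCm38.p6), with all 89 members matched by gene ID.

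Differences were tested with limma 3.58.1 (R 4.3.3) on all 12 arrays, with a mean for each population and Benjamini-Hochberg adjustment over all 19937 genes, with no filter. Repressed and induced mean above 2-fold at an FDR under 5%. The tests are two-sided. The fit was checked on simulated data. Other work used Python 3.11.15, pandas 2.3.3 and matplotlib 3.10.9.

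Named members are the core subunits, the *Sdh* genes, isoform sets and the 6 largest changes each way per comparison with no overlap of arrays. Pathway genes were taken from the 2 largest changes each way per list. Of these, *Mrps27*, *Coq6* and *Sdhaf4* are not described. Other names were added after their values were seen. The members and lists were chosen with earlier results of these data known. Alternatives comprised a fit of 8 arrays, a replicate block, leaving out arrays, filters on level, quantile normalization, 2 centrings, other probe-set rules, other variance models, array weights, treat and other thresholds. Probe sets of the gene's own chromosome were added after seeing the data.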

Additional observations from a re-analysis of the deposited data

Results flagged for a closer look

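In groups of 4 arrays, 1 array stood apart from the other 3 by Dixon's gap ratio in 4 of 141 groups of named members and complexes; chance gives about 1 in 20. *Cox6b1*, a common subunit of complex IV, was low on HSPC array 1 at 11.34, with 11.75, 11.72 and 11.74 on the other HSPC arrays. *Ndufa4* was low on the same array at 10.10, with 10.47, 10.50 and 10.48 on the others. *Cox7a2* was high on ERY array 2 at 10.89, with 10.68, 10.70 and 10.71 on the others. The median of complex IV was lowest on ERY array 1 at -0.0499, with 0.04, 0.04 and 0.05 on the others.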

How the results depend on the processing

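For 65 calls of named members, chosen in part for large changes, 437 of 520 values with 1 array left out kept direction and call. Under other settings 815 of 1012 values did. With treat, the test of a change above 2-fold, 64 of these 65 calls were lost. Signs turned only with centring on ribosomal protein genes, for *Cox6b1* (0.000655) and *Cox7a2l* (0.055) in MEG against HSPC, *Ndufs7* (0.0034) in ERY against HSPC, and the median in ERY against HSPC (0.11). With that centring, 8 members were repressed in MEG (median -0.17), 3 repressed and 2 induced in ERY, and 3 repressed and 2 induced in MEG against ERY. Centring on the higher genes gave 4 repressed in ERY (median -0.15). Quantile normalization gave 3 repressed and 2 induced in MEG against ERY. Array weights gave 1 induced in MEG, 12 repressed and 2 induced in ERY, and 2 repressed in MEG against ERY (median -0.20).

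Without HSPC arrays 1 and 2, ERY had 14 repressed and 2 induced (median -0.44); without HSPC arrays 3 and 4, MEG had 16 repressed and ERY 4 (median -0.16); without MEG arrays 1 and 3, MEG against ERY had 3 repressed. With 1 array left out, repressed counts were 22 to 29 in MEG, 4 to 10 in ERY (4 without HSPC replicate 4) and 3 to 11 in MEG against ERY, induced counts 0, 0 and 1, and medians -0.76 to -0.58 in MEG, -0.36 to -0.22 in ERY and -0.38 to -0.30 in MEG against ERY.

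At an FDR of 5% with no fold limit, counts higher and lower were 1 and 58 in MEG, 3 and 29 in ERY, and 4 and 31 in MEG against ERY; at 1.5-fold they were 0 and 46, 2 and 19, and 3 and 25. The test of a change above 2-fold (treat) called 0 in MEG and 1 lower in ERY, and 0 higher and 0 lower in MEG against ERY; at an unadjusted p of 0.05 it gave 10, 3 and 0 lower. With the replicate number as a block, counts were 27, 7 and 6 repressed and 0, 0 and 1 induced, and 2 single calls were lost. Same-numbered arrays gave 12 correlations of -0.35 to 0.40, 5 of them above 0.1. Differently numbered arrays were not set beside them, so these values cannot tell whether the numbers pair the arrays. Over all members, 9 of 27 calls past 2-fold and 10 of 32 inside it in MEG against HSPC, 4 of 7 and 12 of 25 in ERY against HSPC, and 4 of 7 and 9 of 28 in MEG against ERY were lost on leaving out at least 1 array. Precision is limited by 4 arrays a group.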
